A study of Mus musculus with 3 samples.

Results

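Kupffer cells, the macrophages that live in the liver sinusoids, were followed through 10 marker genes out of the 23361 genes measured. The genes were chosen by name as known markers, at a time when their values in these libraries had already been seen, so their levels are given as a description and no test was made. Clec4f, Vsig4, Cd5l, Timd4, Marco and Cd163 form a group of 6 named Kupffer-specific here, and Emr1, Csf1r, Cd68 and Mrc1 form the general macrophage group of 4. All 10 passed the filter on low values, which asked that FPKM reach 1 in 1 library or more and which 10792 genes passed. FPKM is the number of sequenced fragments relative to the length of the transcript and to the mapped fragments of the library.

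The mRNA came from livers of C57BL/6J mice labelled male and aged 8 to 10 weeks, all fasted for 12 h before surgery. The Sham group had a laparotomy and its livers were taken 90 min later. In the warm ischemia (WI) group the vessels to about 70% of the liver were clamped for 90 min. After the same 90 min of clamping, livers of the ischemia and reperfusion (IR) group were given 2 h of blood flow. Each group had 6 mice and is represented by 1 library, so no value has a replicate check, and it is not stated whether a library pools several mice. Sham livers were taken at the time of the WI livers, so effects of reperfusion and of the 2 further hours cannot be told apart.

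Kupffer cells clear particles, complement-coated microbes and ageing red cells from portal blood, and they do so through scavenger, lectin and complement receptors such as the ones listed here. They depend on signalling through the receptor of colony stimulating factor 1, and they are among the first cells to respond when blood flow returns to an ischemic liver. A liver sample is mostly hepatocyte RNA, so these genes report on a minor cell population. In such bulk RNA, fewer macrophages and less marker RNA in each macrophage cannot be told apart.

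The error of each FPKM is the 95% bounds that the authors deposited with it, which come from a model of the counts and do not cover variation between mice. For the 10 members the standard deviation that these bounds imply lay between 23.2% and 28.8% of the value. The deposited values carry no fragment counts, so no counting interval was computed. The sex label did not match for 2 of the 3 libraries. Xist, transcribed from an inactive X chromosome, had an FPKM of 18.9 in the Sham library, 20.1 in the WI library and 1.29 in the IR library, and Ddx3y, on the Y chromosome, had 0, 0.00849 and 8.58 in the same order. Sham and WI were alike in this respect, but sex cannot be told apart from reperfusion in comparisons with the IR library, and leaving out the 2 libraries would leave no comparison. Vsig4 is the one member on the X chromosome.

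All 10 had a lower FPKM in the WI library than in the Sham library, against 47.3% of all genes that passed the filter. From WI to IR, 8 of the 10 were lower again, against 47.5% of all genes, and Marco and Cd68 were higher. The order Sham above WI above IR held for 8 of the 10 and for 20.6% of all genes. In the IR library 9 of the 10 were below Sham, against 45.6% of all genes. Summed over the Kupffer-specific group, FPKM was 436 in Sham, 216 in WI and 136 in IR. Over the general macrophage group the sums were 96.7, 53.3 and 40.6.

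**Figure D1:**
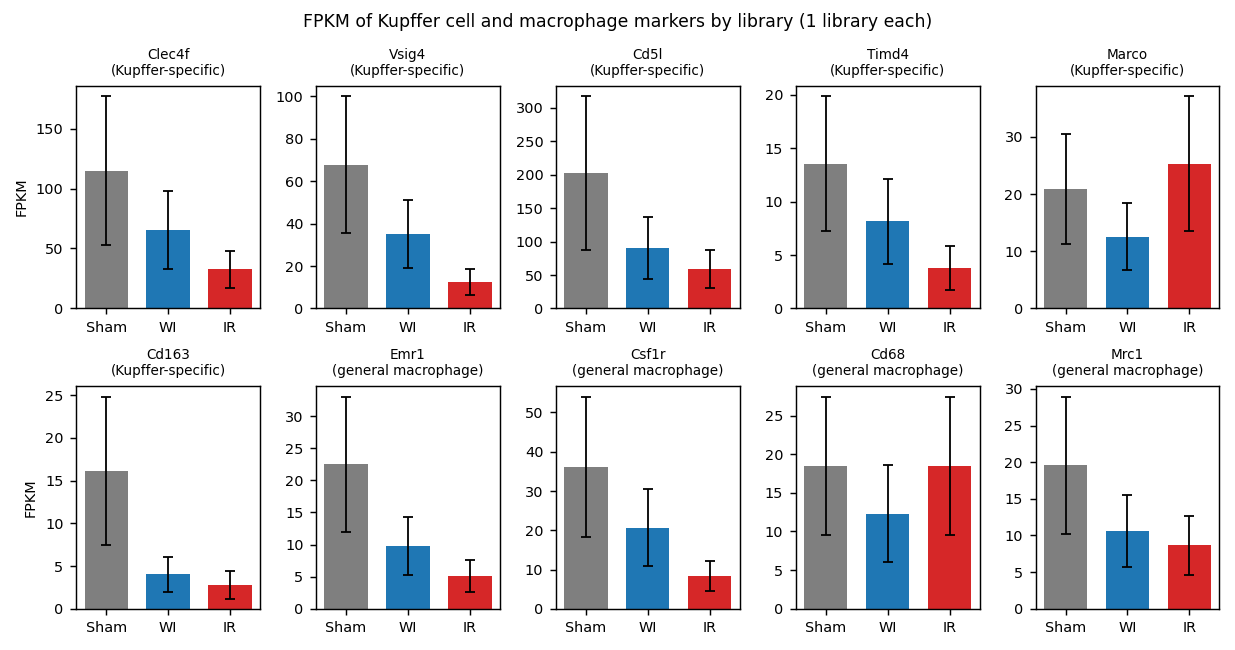
FPKM (vertical axis, from 0, scaled separately for each gene) of the 10 markers in the Sham, WI and IR libraries, 1 library each; the whiskers are the deposited 95% bounds. Clec4f, Vsig4, Cd5l, Timd4, Cd163, Emr1, Csf1r and Mrc1 step down from Sham to WI to IR, while Marco and Cd68 are lowest in WI.

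Among the Kupffer-specific genes, Clec4f encodes a C-type lectin found on mouse Kupffer cells and lies on chromosome 6 of mm10 from 83644542 to 83656116. Its FPKM was 115 in the Sham library (95% bounds 52.9 to 177), 65.3 in the WI library (32.6 to 98.1) and 32.7 in the IR library (17.2 to 48.1). The WI value thus stood at 56.9% of Sham and the IR value at 28.5%, and the bounds of IR and Sham did not overlap.

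Vsig4 encodes the complement receptor with which Kupffer cells capture opsonised particles, and lies on chromosome X from 96247203 to 96293438. Its FPKM was 67.8 in Sham (35.6 to 100.1), 35.1 in WI (18.9 to 51.4) and 12.4 in IR (6.37 to 18.4). It was the one member whose bounds in IR lay below those in WI. On the scale of log2(FPKM + 1), on which all changes are given, it was lower in IR than in Sham by 2.36 (log2 change -2.36, standard error from the bounds 0.468). Only 19 of the 10792 genes, itself included, were lower by as much.

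Cd5l, a secreted scavenger protein of tissue macrophages on chromosome 3 from 87357881 to 87371074, was the most abundant member in every library. Its FPKM was 203 in Sham (88.2 to 317), 90.4 in WI (44.7 to 136) and 59.0 in IR (30.4 to 87.5). Timd4 encodes a receptor for phosphatidylserine on dying cells and marks long-lived resident macrophages, and lies on chromosome 11 from 46810799 to 46844333. It had an FPKM of 13.6 (7.25 to 19.9), 8.16 (4.21 to 12.1) and 3.78 (1.75 to 5.82) in the same order. Both ended with bounds in IR below those in Sham, at 29.1% and 27.9% of their Sham values.

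Cd163, the scavenger receptor for haemoglobin bound to haptoglobin, had the largest drop of the 10 at the ischemia stage. It lies on chromosome 6 from 124304651 to 124330527. Its FPKM was 16.2 in Sham (7.51 to 24.8), 4.02 in WI (1.98 to 6.06) and 2.84 in IR (1.20 to 4.47). The WI value was 24.8% of Sham, a log2 change of -1.78 (standard error from the bounds 0.467), and its bounds lay below those of Sham. From WI to IR the bounds overlapped.

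Among the general macrophage genes, Emr1 encodes the surface protein F4/80, by which mouse macrophages are commonly stained, and lies on chromosome 17 from 57358686 to 57483529. Its FPKM was 22.5 in Sham (11.9 to 33.0), 9.74 in WI (5.22 to 14.3) and 5.06 in IR (2.59 to 7.52). Csf1r, the receptor through which macrophages receive their survival signal, lies on chromosome 18 and had an FPKM of 36.2 (18.3 to 54.0), 20.6 (10.9 to 30.4) and 8.33 (4.47 to 12.2). In IR they stood at 22.5% (Emr1) and 23.0% (Csf1r) of Sham, with bounds that did not overlap those of Sham. Mrc1 encodes the mannose receptor, which sinusoidal endothelial cells also carry, and lies on chromosome 2 from 14229414 to 14332023. Its FPKM was 19.6 in Sham (10.2 to 28.9), 10.6 in WI (5.69 to 15.6) and 8.68 in IR (4.66 to 12.7), and none of its bounds were apart.

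Marco and Cd68 took another course. Marco encodes a scavenger receptor that binds bacteria and lies on chromosome 1 from 120474538 to 120505084. Its FPKM was 20.9 in Sham (11.2 to 30.6), 12.6 in WI (6.73 to 18.4) and 25.3 in IR (13.6 to 37.1), so it was lower after ischemia and, after reperfusion, at 201% of its WI level. Cd68 encodes a lysosomal glycoprotein of phagocytes and lies on chromosome 11 from 69664371 to 69666062. Its FPKM was 18.5 in Sham (9.59 to 27.5), 12.3 in WI (6.07 to 18.6) and 18.5 in IR (9.59 to 27.4). For both genes the bounds overlapped between all 3 libraries. The log2 change from WI to IR was 0.96 for Marco (standard error from the bounds 0.448) and 0.55 for Cd68 (0.473).

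Ratios between members of the same library do not depend on how the libraries were scaled. Marco stood at 18.2% of the FPKM of Clec4f in Sham and 19.3% in WI, and at 77.5% in IR. Cd68 stood at 16.1%, 18.9% and 56.6% in the same order. Mrc1 stood at 17.02%, 16.3% and 26.6%. Vsig4 went the other way with 59.0%, 53.8% and 37.9%, and Csf1r had 31.5%, 31.6% and 25.5%. Cd163 had 14.1% in Sham, 6.15% in WI and 8.68% in IR, and Emr1 19.6%, 14.9% and 15.5%. The ratio of Cd5l was 176%, 138% and 180.3%, and that of Timd4 stayed between 11.6% and 12.5%. Marco moved from the sixth rank among the 10 in Sham to the third in IR, and Cd68 from the eighth to the fourth. Cd5l and Clec4f held the first and the second rank in every library. None of the 27 pairs of neighbours in these orders had bounds apart (0 pairs), so no adjacent genes were separated by their bounds.

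The Kupffer-specific and the general genes were compared by their medians. From Sham to WI the median log2 change was -0.87 in the Kupffer-specific group and -0.80 in the general group, and over all 10792 genes it was 0.02. From WI to IR it was -0.77 and -0.55, against 0.03 over all genes. In IR against Sham it was -1.77 and -1.52, against 0.05 over all genes. Each group held one gene that was higher in IR than in WI, and the difference between the groups was not tested.

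**Figure D2:**
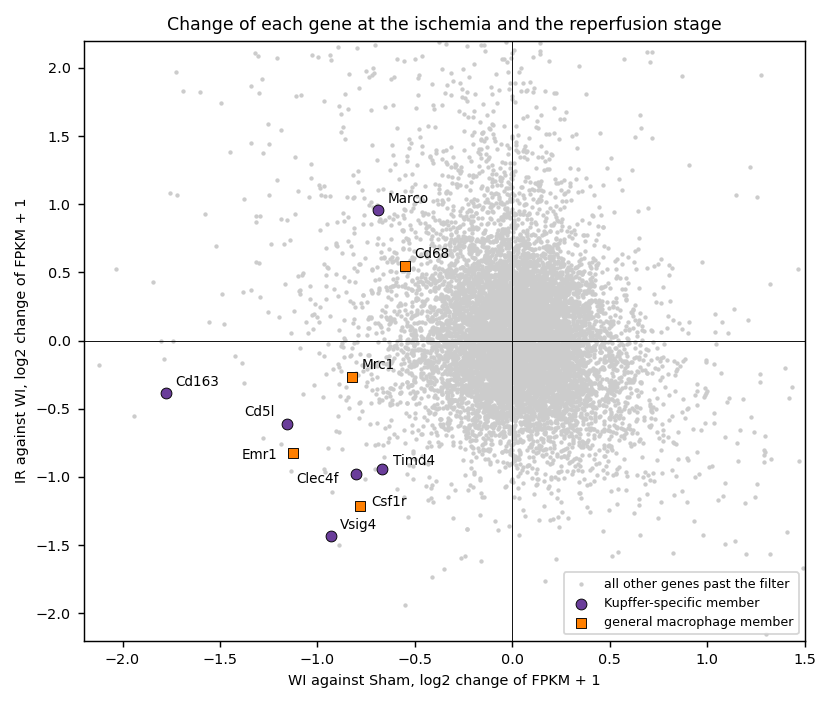
Log2 change of FPKM + 1 from Sham to WI (horizontal axis) and from WI to IR (vertical axis) for the 10 markers (circles, Kupffer-specific; squares, general macrophage) and all other genes that passed the filter (grey); 179 genes lie beyond the axes. All 10 markers lie left of 0, and Marco and Cd68 are the ones above 0.

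Counted against a 2-fold limit, the members compared with all genes as follows. In WI against Sham, 3 of the 10 (Cd5l, Cd163 and Emr1) were at least 2-fold lower in FPKM + 1, against 1.1% of all genes, and 0 were at least 2-fold higher, against 0.751%. From WI to IR the count was 2 lower (Vsig4 and Csf1r) against 1.43% of all genes, and 0 higher against 5.78%. Between IR and Sham, 8 members were at least 2-fold lower against 2.15% of all genes, and 0 higher against 5.35%. Clec4f, at a log2 change of -0.98 from WI to IR, lay just outside the 2-fold line and Mrc1, at -1.09 in IR against Sham, just inside it. By the stricter reading, that the bounds lie apart, 1 member was lower in WI than in Sham (0.482% of all genes), 1 was lower in IR than in WI (0.398%) and 7 were lower in IR than in Sham (1.12%). Because the members were picked with these values in view, the counts describe them and test nothing.

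These values hold for FPKM as deposited. Summed FPKM was 475754 in Sham, 487912 in WI and 712423 in IR, so bringing the libraries to a common sum lowers every gene in IR. The median of all genes then moved to -0.454 in IR against WI and to -0.455 in IR against Sham, and every IR value given in the text moves down with it. On that scale the members were lower by more, with Vsig4 at -2.97 and Mrc1 at -1.67 in IR against Sham. Marco went from 0.27 to -0.30 in IR against Sham, and Cd68 from -0.0008 to -0.57, so the direction of Marco turned and depends on the scaling. In IR against WI, Marco went from 0.96 to 0.45 and Cd68 from 0.55 to 0.04. The rise of Cd68 from WI to IR thus nearly vanished on the common sum. Set against the median of all genes, 9 of the 10 members lay below it in IR against Sham and 8 in IR against WI under either scaling. The share of lower genes among all that differed 2-fold went with the common sum from 19.8% to 75.5% in IR against WI and from 28.7% to 83.0% in IR against Sham. Without the 10 highest genes of each library in the sum these shares were 58.0% and 70.2%. The status HIDATA, with which Alb is listed at 0, was given to 1 gene in Sham, 1 in WI and 7 in IR. Its effect on the summed FPKM was not tested.

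**Figure D3:**
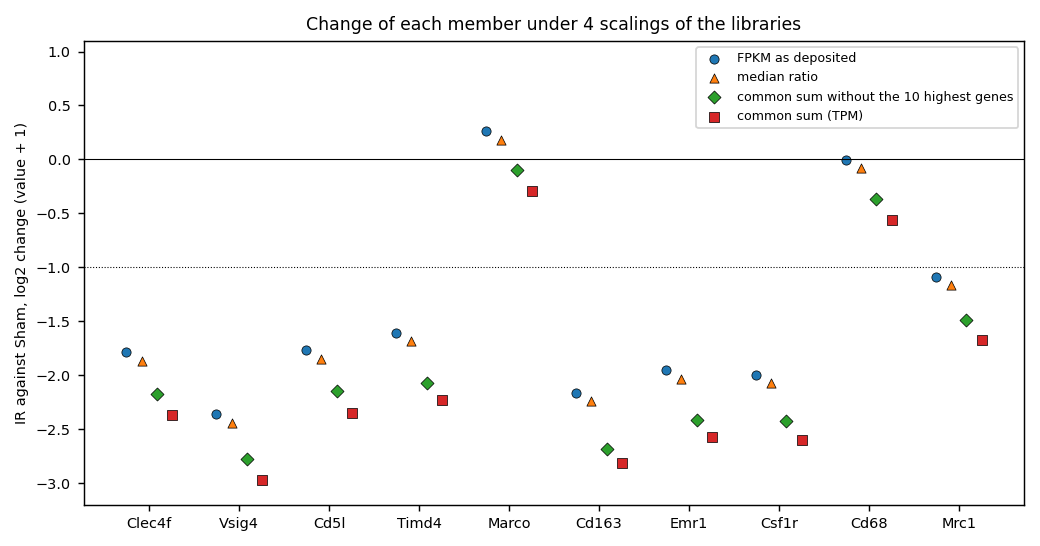
Log2 change of each marker in IR against Sham (vertical axis, value + 1) with FPKM as deposited, a median ratio scaling, a common sum without the 10 highest genes of each library, and a common sum over all genes (TPM); the dotted line marks a 2-fold fall. Of the 10 markers, 8 lie below the dotted line under each of these scalings, and Marco changes sign.

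The promoters of 2 genes that stepped down (Clec4f, Vsig4) and of the 2 that were higher in IR than in WI (Marco, Cd68) are shown because these courses differed. Each window runs 5′ to 3′ on the strand of the gene, from 250 bases before to 50 bases after the start site in RefSeq (GRCm38.p6, the same assembly as mm10). The start site equals that of the deposited gene model for Clec4f and Vsig4 and lies 60 bases from it for Marco and 108 bases for Cd68. Capitals mark matches, on either strand, to GGAAGT, a core of sites for Ets factors such as the macrophage factor PU.1, and to TGANTCA, the site of AP-1.
Clec4f, chr6:83656067-83656366, minus strand: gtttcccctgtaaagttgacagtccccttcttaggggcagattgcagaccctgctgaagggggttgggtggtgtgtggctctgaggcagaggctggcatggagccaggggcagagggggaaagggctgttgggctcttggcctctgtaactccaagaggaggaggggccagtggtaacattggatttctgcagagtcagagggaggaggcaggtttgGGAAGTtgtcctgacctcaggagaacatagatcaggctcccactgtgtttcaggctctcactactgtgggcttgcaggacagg
Vsig4, chrX:96293389-96293688, minus strand: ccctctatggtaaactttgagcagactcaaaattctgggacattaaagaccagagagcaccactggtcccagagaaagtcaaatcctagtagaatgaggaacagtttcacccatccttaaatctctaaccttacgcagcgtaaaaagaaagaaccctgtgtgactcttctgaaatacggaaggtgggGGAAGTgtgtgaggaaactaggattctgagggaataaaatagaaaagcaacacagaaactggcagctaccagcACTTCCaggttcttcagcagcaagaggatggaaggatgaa
Marco, chr1:120504975-120505274, minus strand: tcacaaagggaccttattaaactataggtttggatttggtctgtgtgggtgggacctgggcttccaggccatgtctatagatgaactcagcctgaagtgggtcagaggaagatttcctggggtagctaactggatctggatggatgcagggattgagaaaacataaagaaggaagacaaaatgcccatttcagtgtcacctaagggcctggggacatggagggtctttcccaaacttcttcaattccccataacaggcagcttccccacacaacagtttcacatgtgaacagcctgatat
Cd68, chr11:69666121-69666420, minus strand: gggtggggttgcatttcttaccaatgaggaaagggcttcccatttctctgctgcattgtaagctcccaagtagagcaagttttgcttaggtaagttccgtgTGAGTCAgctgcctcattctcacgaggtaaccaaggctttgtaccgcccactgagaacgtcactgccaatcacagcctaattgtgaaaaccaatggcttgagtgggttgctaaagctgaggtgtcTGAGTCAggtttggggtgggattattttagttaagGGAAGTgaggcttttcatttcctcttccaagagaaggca

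RefSeq windows of 8 of the 10 members were searched. None was found for Emr1, and Csf1r, on chromosome 18, was left out of the search. The Ets core GGAAGT occurred in 5 of these 8 and in 23.8% of 32851 promoter windows of the same length. The AP-1 site TGANTCA occurred in 1 of the 8, that of Cd68, which holds it 2 times, and in 7.81% of all windows. CACGTG, the E-box read by factors such as Myc and Tfe3, occurred in 0 of the 8 and in 7.15% of all windows. A match is a run of letters and not a measured binding site.

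Other genes enriched in Kupffer cells were taken from a list of 15. Of these, 13 were lower in WI than in Sham, against 47.3% of all genes, with a median log2 change of -0.63. In IR against Sham 7 were at least 2-fold lower, against 2.15% of all genes. The 3 chains of complement C1q, which liver macrophages make, were abundant and had smaller changes than Clec4f. C1qb had an FPKM of 139.5 in Sham (70.9 to 208), 96.8 in WI (50.6 to 143) and 84.6 in IR (44.6 to 125), with overlapping bounds. Slc40a1, the iron exporter ferroportin, had 86.8 (40.9 to 133), 45.9 (23.4 to 68.3) and 28.6 (15.1 to 42.1), again with overlapping bounds. Sdc3, a syndecan, ended at 9.32 (5.004 to 13.6) from 31.3 in Sham (15.7 to 46.9), with bounds apart.

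From WI to IR 2 genes of this list, both transcriptional regulators, were at least 2-fold higher, against 5.78% of all genes. Id3, which Kupffer cells need for their development and other liver cells also express, had an FPKM of 33.8 in Sham (18.0 to 49.6), 29.3 in WI (15.5 to 43.1) and 123 in IR (64.2 to 181). Spic, the factor of red pulp macrophages that heme induces, had 2.51 (0.941 to 4.08), 0.938 (0.254 to 1.62) and 5.78 (2.62 to 8.93). For both the bounds in IR lay above those in WI.

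A list of 18 further macrophage genes was lower throughout at the ischemia stage. All 18 had a lower value in WI than in Sham, against 47.3% of all genes. The median change was -0.56, and 0 were lower by as much as 2-fold, against 1.1% of all genes. At the reperfusion stage, IR against WI, 11 were lower, against 47.5% of all genes, and 7 higher. Mpeg1, a pore-forming protein of macrophages, had an FPKM of 40.5 in Sham (20.1 to 60.9), 29.7 in WI (15.3 to 44.2) and 12.6 in IR (6.78 to 18.5), and Axl, a receptor for dying cells, 13.1 (6.74 to 19.5), 6.34 (3.21 to 9.46) and 3.25 (1.49 to 5.01). Both had bounds in IR below those of Sham. Cd14, the co-receptor for lipopolysaccharide, went the other way with 9.99 in Sham (4.99 to 15.0), 5.31 in WI (2.40 to 8.22) and 110.0 in IR (55.7 to 164), a log2 change of 4.14 from WI to IR. Itgam, an integrin chain shared with neutrophils, was the other gene of this list at least 2-fold higher in IR than in WI.

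Of 12 transcription factors of myeloid cells, 10 were lower in WI than in Sham, against 47.3% of all genes. By 2-fold 0 were lower, and the median was -0.34 over the 12. In IR against WI 3 were at least 2-fold higher, against 5.78% of all genes. These were Id3 and Spic as above and Cebpb, a factor induced by inflammation in hepatocytes and macrophages alike. Maf, which maintains tissue macrophages, had an FPKM of 11.4 in Sham (6.13 to 16.8), 8.88 in WI (4.73 to 13.04) and 5.46 in IR (2.81 to 8.11).

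The ligands of Csf1r were scarce. Csf1 had an FPKM of 2.37 in Sham (0.922 to 3.83), 3.44 in WI (1.46 to 5.41) and 4.81 in IR (2.34 to 7.28), and Il34 had 2.30 (0.803 to 3.80), 1.72 (0.418 to 3.02) and 1.49 (0.518 to 2.47). All these bounds overlapped. Of the 9 genes of this growth factor list besides Csf1r, 2 were at least 2-fold higher in IR than in WI, against 5.78% of all genes. They were Csf3 and the neutrophil receptor Csf3r.

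Among 18 genes that activated macrophages transcribe, 15 were higher in IR than in WI and 3 lower, with a median of 0.55. Of all genes that passed the filter, as 11 of these 18 did, 47.5% were lower. At least 2-fold higher were 7 of the 18, against 5.78% of all genes, and 5 of the 18 reached an FPKM of 1 in the IR library alone. Ccl4, a chemokine for monocytes and lymphocytes, had an FPKM of 0.440 in Sham (0 to 0.885), 0.736 in WI (0.0706 to 1.40) and 26.03 in IR (13.1 to 39.0). Chi3l3, a chitinase-like protein of myeloid cells, had 0.327 (0.0476 to 0.606), 0.258 (0.0248 to 0.492) and 7.51 (3.65 to 11.4). Il10, the anti-inflammatory cytokine, was at least 2-fold lower in WI, with 1.41 in Sham (0.435 to 2.39), 0.148 in WI (0 to 0.308) and 0.617 in IR (0.126 to 1.11). Other cells of the liver make several of these products, and their source was not tested.

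**Figure D4:**
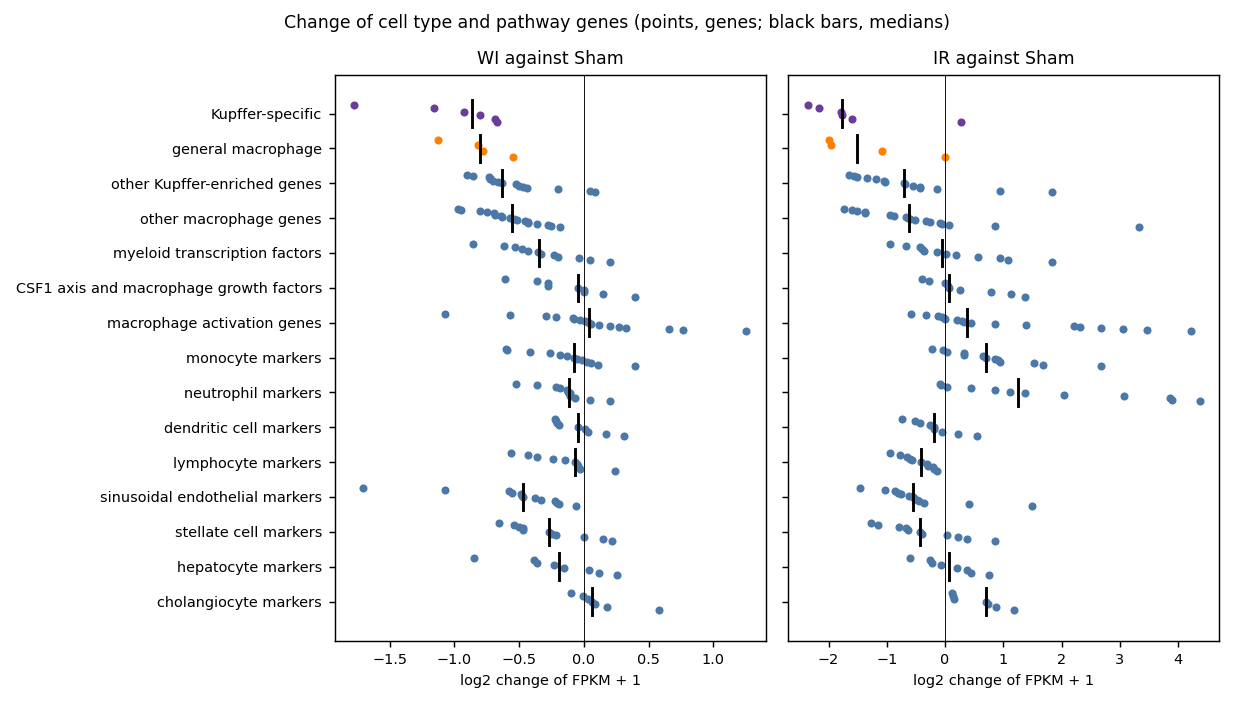
Log2 change of FPKM + 1 (horizontal axes) in WI against Sham and in IR against Sham for all measured genes of each list, with the 10 members left out of the lists below the first 2 rows; each point is 1 gene and each black bar a median. The Kupffer-specific and general macrophage medians are the lowest in both panels, and the neutrophil median, 1.25 in IR against Sham, is the highest on the right.

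Neutrophil and monocyte markers were mostly higher at the later stage. Lymphocyte and dendritic cell markers were not, as 11 of 11 and 7 of 9 were lower in IR than in WI. Of all genes that passed the filter, 47.5% were lower. Only 4 of the 11 and 2 of the 9 passed it, and of those 4 and 1 were lower. Over 12 neutrophil markers summed FPKM was 26.9 in Sham, 20.5 in WI and 473 in IR, and 8 of the 12 were at least 2-fold higher in IR than in WI, against 5.78% of all genes. Of these 8, 4 reached an FPKM of 1 in the IR library alone. The 2 most abundant were S100a8, with 13.6, 9.17 and 212, and S100a9, with 8.86, 8.07 and 204, while Mpo, which neutrophils transcribe in the bone marrow, had 0.0598, 0.0131 and 0. Itgam is on this list, the monocyte list and the macrophage list. Csf3r, Chi3l3, Cd86, Nr1h3, Spic and Id3 are each on 2 of the lists used and count in both. Over 13 monocyte markers the sums were 250.2, 234 and 282. Fn1, fibronectin, which hepatocytes also make, held 190.03, 193 and 186 of these, and without it the sums were 60.1, 41.5 and 95.9. Plac8 held 45.4, 29.8 and 56.9 of that remainder, with overlapping bounds. Of the 13, 6 were at least 2-fold higher in IR than in WI, against 5.78% of all genes, and 3 were lower. These 3 were Fn1, Ccr2 with an FPKM of 0.879, 1.03 and 0.932, and Cx3cr1 with 0.195, 0.151 and 0.0251. The part of recruited cells in the IR values of Cd68, Cd14 and Marco was not tested.

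Sinusoidal endothelial, stellate and hepatocyte markers also had medians below 0 in WI against Sham. Over 13 sinusoidal endothelial genes besides Mrc1, all 13 were lower, against 47.3% of all genes, by a median of -0.47. Their summed FPKM was 237 in Sham, 174 in WI and 173 in IR. The defining scavenger receptor Stab2 had an FPKM of 8.05 (4.27 to 11.8), 5.47 (2.94 to 8.01) and 5.17 (2.77 to 7.56), while Mrc1, shared with these cells, stood at 54.3% of Sham in WI. Lyve1, the hyaluronan receptor, stood apart with 11.2 in Sham (5.97 to 16.3), 2.73 in WI (1.25 to 4.21) and 33.4 in IR (17.5 to 49.3). Over 11 stellate cell genes the median was -0.27 in WI against Sham and the sums were 242, 171 and 175. Over 8 hepatocyte genes it was -0.19, with sums of 23631, 18758 and 27361, the highest sums of the lists. Apoa1 held 7630 (0 to 15988), 4239 (300 to 8179) and 8799 (0 to 18858) of these, so the sums rest on values with wide bounds. The part of these cells in the marker changes was not tested.

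The genes whose pair of changes, Sham to WI and WI to IR, lay nearest to that of Clec4f were Lipg, an endothelial lipase, at a distance of 0.06 on the log2 scale, Sdc3 at 0.11 and the member Timd4 at 0.14. Only 1 gene lay within 0.1 of Clec4f. For Cd68 the nearest were Acsl1, a fatty acid activating enzyme, at 0.0067, Tfec, a factor of macrophages, at 0.02 and Errfi1 at 0.04, and 25 genes lay within 0.1. With 3 libraries such closeness rests on 2 values per gene.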

How the data were processed

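Liver mRNA was sequenced as 1 library for each of the Sham, WI and IR groups. The authors mapped reads to mm10 (TopHat2 2.0.9) and deposited an FPKM with its 95% bounds per gene, computed with Cuffdiff (Cufflinks 2.0.2); reads shared with overlapping genes or pseudogenes could shift an FPKM, and RefSeq lists other genes within the intervals of Cd163, Emr1, Csf1r and Mrc1. FPKM also depends on the few most abundant genes of a library. Starts are written 1 base above those in the files, to count from 1.

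Changes were computed on log2(FPKM + 1) over the 10792 genes whose FPKM reached 1 in 1 library or more. A standard error was taken from the bounds, read as 2 standard deviations on each side. A gene was counted past a 2-fold difference in FPKM + 1, or where bounds lay apart. With 1 library per group no test was made. Fragment counts could not be recovered, since low FPKM values showed no steps of whole fragments, and the read depths that the study states were not used here. Lists were counted over all their measured genes, a choice made after seeing the data, since the filter admits genes through the library where they are high. The shares of all genes given beside them cover only the 10792 genes that passed. For lists that hold genes below the filter the count and the share thus rest on unlike sets.

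Members and lists were chosen with earlier results of these data known. Named genes are the members, genes of a list past 2-fold or with its 2 largest changes in a direction or 2 highest FPKM, and the 3 nearest in pattern to Clec4f and Cd68 (Euclidean distance). Stab2 and Mpo were named after their values were seen. Alternatives were other pseudocounts, filters, scalings, fold limits and status OK. Spi1 was found under its older symbol Sfpi1; Ly6g, Trac and Tf were not used here, nor Alb, which is listed at 0 with status HIDATA. Calculations were tested on simulated data. Python 3.11.15, numpy 2.4.6, pandas 2.3.3 and matplotlib 3.10.9 were used.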

Additional observations from a re-analysis of the deposited data

How the results depend on the processing

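Of the values that answer a comparison, recomputed under the alternatives, 68 stayed within the error of the main value or within 1.5 times the main count, 13 moved beyond it, and 0 called changes turned direction. Part of the 68 was fixed in advance, since the filter and status alternatives keep every member and cannot change its own value. The 68 are therefore no measure of how stable the results are. The direction of Marco in IR against Sham, which was not past 2-fold, turned with a common sum. With a common sum (TPM), the median of the Kupffer-specific group was -1.32 in IR against WI and -2.36 in IR against Sham, that of the general group was -1.08 and -2.13, and 6 members were 2-fold lower from WI to IR, against 11% of all genes. The members past 2-fold from WI to IR were 5 without the 10 highest genes in the sum (6.38% of all genes lower), and 4 with a pseudocount of 0.1 or none, where Marco was the 1 that was higher. With 0.1, 3.57% of all genes were lower and 854 of 10792 higher. With none, 4.04% were lower and 875 of 10754 higher. At 1.5-fold, 9 members passed in WI against Sham, all lower (4.27% of all genes). In IR against WI 7 passed, 6 lower (7.4%) and Marco higher (1333 of 10792 genes). At 4-fold 0, 0 and 2 passed in the 3 comparisons, the 2 lower, where 0.158%, 0.176% and 0.232% of all genes were lower. A wider or narrower limit must give fewer or more. No paired analysis was possible because each group has 1 library, and for the same reason none could be left out. Without replicates the deposited bounds are the only error used.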

Other observations

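Lymphocyte markers were low and lower still in IR. Over 11 genes summed FPKM was 12.9 in Sham, 10.7 in WI and 6.06 in IR. All 11, of which 4 passed the filter, were lower in IR than in Sham, by a median log2 change of -0.41, none by 2-fold (0). Of all genes that passed, 45.6% were lower. Nkg7, of cytotoxic lymphocytes, had an FPKM of 2.58 (0.781 to 4.38), 2.23 (0.637 to 3.82) and 0.851 (0.133 to 1.57). Dendritic cell markers were near the limit, with sums over 9 genes of 5.48, 5.08 and 3.94.

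Cholangiocyte markers went the other way, with sums over 7 genes of 54.3, 62.0 and 93.9. Spp1 held 51.8, 58.7 and 86.7 of these, with overlapping bounds, so the sums rest mostly on 1 gene. All 7 were higher in IR than in Sham, by a median of 0.70, and 1 by 2-fold, against 5.35% of all genes. That was Sox9, a factor of bile duct cells, which reached an FPKM of 1 in the IR library alone, with 0.276 (0.0683 to 0.483), 0.351 (0.0983 to 0.604) and 1.91 (0.864 to 2.95).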
